A study of Cyprinus carpio with 18 samples.

Results

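Kinesins are motor proteins that use ATP to walk along microtubules or, in some families, to take microtubule ends apart. The members described here are the protein-coding rows of the common carp (Cyprinus carpio) expression table whose description contains "kinesin" and does not contain "associated", "binding" or "light chain". Of 154 protein-coding kinesin rows, 34 were left out by that rule: 14 light chains, 8 trafficking kinesin-binding proteins, 6 chromosome-associated kinesins KIF4, 4 kinesin-associated proteins 3 and 2 calmodulin-binding kinesins. The remaining 120 rows are 120 of 90808 features and of 49264 protein-coding features. They carry 35 kinesin names, and 28 of these names are shared by 2 or more rows. The contrast is between 19 rows of the mitotic group (KIF11, KIF18A, KIF20A, KIF20B, KIF23 and KIF2C) and 52 rows of the neuronal group (KIF1A to KIF1C, KIF3A to KIF3C, KIF5 and KIF21A and KIF21B). The others are 12 rows of further mitotic kinesins (KIF14, KIF15, KIF22, KIFC1 and KIF2A), 34 rows of ciliary or trafficking kinesins, and 3 unclassified rows, of which trak1 is an adaptor and not a motor.

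Whole embryos of wild-type FFRC No.2 strain common carp, a selected line of 3 founder carps, came from natural spawning and were collected untreated at 6 stages. Cleavage embryos were 2 hours post-fertilization (hpf) old, blastocyst embryos 6 hpf, gastrulation embryos 12 hpf, embryos in organ formation 20 hpf and hatching embryos 64 hpf, and the larvae were taken 1 day post-hatching (dph). Each stage has 3 strand-specific, rRNA-depleted RNA-seq libraries, 18 in all. Per the labels, RNA was pooled within each stage before the libraries were made, and no label says that the 3 libraries came from separate clutches, so the p-values measure the spread between libraries, which may be technical.

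In dividing cells, KIF11 pushes the spindle poles apart, KIF18A and KIF2C control the length and attachment of kinetochore microtubules, and KIF20A, KIF20B and KIF23 organise the central spindle and the final separation of daughter cells. In nerve cells, members of the KIF1, KIF3 and KIF5 families carry vesicles, mitochondria and other cargo along axons and dendrites, and KIF21 proteins restrain microtubule growth. Several of the latter, among them KIF5B, KIF1C, KIF3A and KIF3B in mammals, are made in most cell types, so "neuronal" names the group and not a cell. Early fish embryos divide on RNA stored in the egg before they transcribe much of their own.

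Counted reads per library ranged from 16326813 in cleavage library 3 to 43270557 in gastrulation library 2, and edgeR's trimmed mean of M-values (TMM) factors from 0.711 to 1.25. Levels of 1 gene over the stages are given as CPM, counts rescaled to a common library total, with these factors. Levels of different genes are compared per transcript length, as the deposited RPKM, reads scaled to transcript length and to library size, and within a library. Where copies of 1 kinesin are called high, low or alike from CPM values, those are not corrected for length. Shares of the counts of a kinesin name by copy are shares of reads, with no correction for length. In each comparison 69265 features were tested with edgeR's quasi-likelihood test, and a feature rose or fell where its Benjamini-Hochberg adjusted p over all of them was under 0.05. Of the tested features 41841 were protein-coding, as all the kinesins are, so the shares of all features given below include many rows that are not. Of the 120 kinesins, 112 passed the filter on low counts and 8 did not: 2 KIF16B rows and 1 row each of KIF9, KIF20B, KIF1B, KIF21A, KIF21B and KIF3A. The KIF9 row among them, LOC109086298, had 0 counts in every library. All of the marker lists named below, for neurons, dividing cells, the oocyte, ciliated cells and muscle, are lists of known genes of those cells. Their summed level at cleavage and in the larva was 33.1 and 1234 CPM for 47 neuron markers, 2341 and 1176 CPM for 17 proliferation markers, 1896 and 11.7 CPM for 8 oocyte and maternal markers, 22.4 and 41.4 CPM for 8 ciliated cell markers, and 20.0 and 24403 CPM for 16 skeletal muscle markers. In whole embryos, fewer cells of a type and less RNA per cell cannot be told apart.

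Mitotic kinesins led the kinesin transcripts of the embryo at cleavage, and neuronal kinesins led those of the larva. Summed over members, mitotic kinesins had 4.05 ± 0.197 times (SD, n = 3) the RPKM of neuronal kinesins at cleavage and 0.371 ± 0.0485 times in the larva. The single libraries gave 3.82, 4.17 and 4.15 at cleavage, 2.76, 2.90 and 2.87 at blastocyst, 4.98, 5.10 and 4.81 at gastrulation, 1.98, 2.00 and 1.97 at organ formation, 0.713, 0.657 and 0.761 at hatching, and 0.350, 0.337 and 0.427 in the larva. No library of one stage overlapped with another stage: gastrulation stood highest, and only at hatching and in the larva did the neuronal group exceed the mitotic group. This ratio is taken within each library, so the scaling between libraries does not enter it. With the further mitotic kinesins added to the mitotic side, it was 1.39 ± 0.132 at hatching and 0.755 ± 0.0843 in the larva. On that count the neuronal group was the larger in the larva only. As a share of all kinesin RPKM, the mitotic group held 53.9% at cleavage, 39.2% at gastrulation and 17.9% in the larva, against 13.4%, 7.89% and 48.5% for the neuronal group. The further mitotic kinesins peaked between them, at 41.4% of kinesin RPKM at gastrulation.

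**Figure D1:**
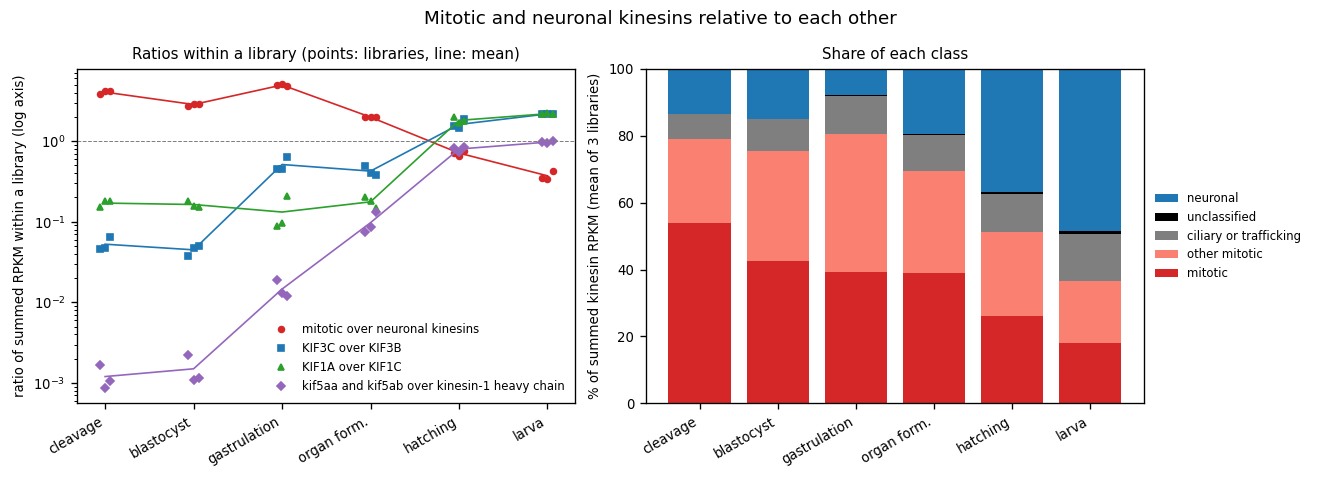
Left, ratios of summed RPKM in each library (points, log axis) over the 6 stages, with lines through the stage means. Right, the share of summed kinesin RPKM held by each class (percent, mean of 3 libraries): the mitotic share falls from 53.9% at cleavage to 17.9% in the larva, while the neuronal share ends at 48.5%.

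Between the 2 ends of the series, 17 of the 18 tested mitotic kinesins fell from cleavage to larva and 0 rose in edgeR's test, nor did any rise at an unadjusted p under 0.05 or with DESeq2 or limma. Of all 69265 features, 22.5% fell and 58.5% rose in that comparison. Of the 48 tested neuronal kinesins, 30 rose and 13 fell, shares near those of all features. Of all 112 kinesins, 50 rose and 49 fell. The median log2 change was -2.53 for the mitotic and 0.91 for the neuronal kinesins, and 2.12 for all tested features. Relative to that median of all features, both groups were lower, by -4.64 and -1.21. The mitotic count of 17 was the same with TMM, DESeq2 size factors, library totals and the denominators implied by the deposited RPKM, and the neuronal counts ranged from 26 to 30 risen and 13 to 15 fallen. The mitotic member that did not pass was LOC109094027, 1 of 8 rows named KIF20B, at 0.949 ± 0.534 CPM at cleavage and 1.15 ± 0.3002 CPM in the larva.

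With all 18 libraries, more mitotic kinesins fell than rose and more neuronal kinesins rose than fell in the 3 steps after gastrulation. For the neuronal kinesins, the order in the last of these steps did not hold without some single libraries. From cleavage to blastocyst, 0 mitotic kinesins rose and 7 fell, and 2 neuronal kinesins rose and 2 fell, while 15.8% of all features rose and 6.52% fell. Of all kinesins, 10 rose and 12 fell in that step, and of the tested protein-coding features 12.5% rose and 9.49% fell. From blastocyst to gastrulation, 6 mitotic kinesins rose and 9 fell, and 11 neuronal kinesins rose and 25 fell, against 44.4% and 22.3% of all features. From gastrulation to organ formation, 0 mitotic kinesins rose and 13 fell, and 24 neuronal kinesins rose and 8 fell, against 28.1% and 19.8%. From organ formation to hatching, 0 mitotic kinesins rose and 13 fell, and 30 neuronal kinesins rose and 2 fell, against 17.4% and 12.2%. From hatching to larva, 0 mitotic kinesins rose and 12 fell, and 5 neuronal kinesins rose and 2 fell, against 5.32% and 6.13%. Leaving out 1 library moved some of these counts by over 1.5 times. The neuronal kinesins that rose into blastocyst ranged from 1 to 10, with 10 without cleavage library 2, 9 without blastocyst library 3, 8 without any 1 gastrulation library, 4 without cleavage library 3, and 1 without blastocyst library 1 or 2, organ formation library 1 or 2, or any 1 hatching or larva library. Those that rose into the larva ranged from 1 to 7, with 1 without larva library 2 or any 1 hatching library and 3 without larva library 3. The neuronal kinesins that fell into the larva stayed at 2, so where 1 rose, more fell than rose. The mitotic kinesins that rose into gastrulation were 3 without cleavage library 3, blastocyst library 3 or gastrulation library 1 or 2. The counts of 0 risen mitotic kinesins are edgeR's. At an unadjusted p under 0.05, 2 rose into blastocyst and 0 in the 3 later steps, DESeq2 called 0 in all of these steps, and limma called 1 into organ formation and 0 in the others. Over all 6 stages, 17 of 18 mitotic and 46 of 48 neuronal kinesins differed, in a comparison where 93.7% of all features did.

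The direction and size of these steps depend on how the libraries are scaled, because the median of all features itself moved: in the step to gastrulation it was 0.75 with TMM and -0.08 with the RPKM denominators, and in the step to hatching -0.01 and 0.40. Relative to the median of all features under TMM, the median mitotic kinesin changed by -0.20, -1.14, -1.15, -0.57 and -0.73 in the 5 successive steps, and the median neuronal kinesin by -0.07, -1.77, 0.65, 1.14 and 0.18. Over TMM, DESeq2 size factors, library totals and the denominators implied by the deposited RPKM, the relative mitotic median ranged from -1.29 to -1.14 in the step to gastrulation and from -0.57 to -0.56 in the step to hatching, and the relative neuronal median from -1.92 to -1.77 and from 1.14 to 1.15. The neuronal median of the step to gastrulation includes 4 members with 0 counts at the earlier or the later stage. It was -1.02 as fitted, and -0.76 with those members set to the bound that 3 counts summed over a stage allow. With the RPKM denominators 1 mitotic kinesin fell in the step to hatching, where TMM gave 13, and 15 fell in the step to gastrulation, where TMM gave 9. Of the 68347 features tested with those denominators, 2866 fell in the step to hatching and 24429 in the step to gastrulation. With TMM these were 8427 and 15440 of 69265. For single genes, the direction of a small change can turn between TMM and the RPKM denominators. Of the 112 tested kinesins, 21 turned in the step to blastocyst, 13 of them neuronal, and 11 in the step to organ formation. In the step to hatching 18 turned, in the step to the larva 3, and from cleavage to larva 6. In the step to gastrulation 21 had a positive change with TMM and a negative one with the RPKM denominators. They were 5 mitotic kinesins, among them KIF11-B, kif20a and the KIF2C rows LOC109058483 and LOC109108338, and 6 neuronal kinesins, among them kif21b, the KIF1C row LOC109088989 and the KIF5 row LOC109102212. The others were 4 further mitotic kinesins (the KIF22 row LOC109067303, the KIFC1 row LOC109062119 and the KIF2A rows LOC109059015 and LOC109107404), 5 ciliary or trafficking kinesins, among them the KIF7 row LOC109068621, and trak1.

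**Figure D2:**
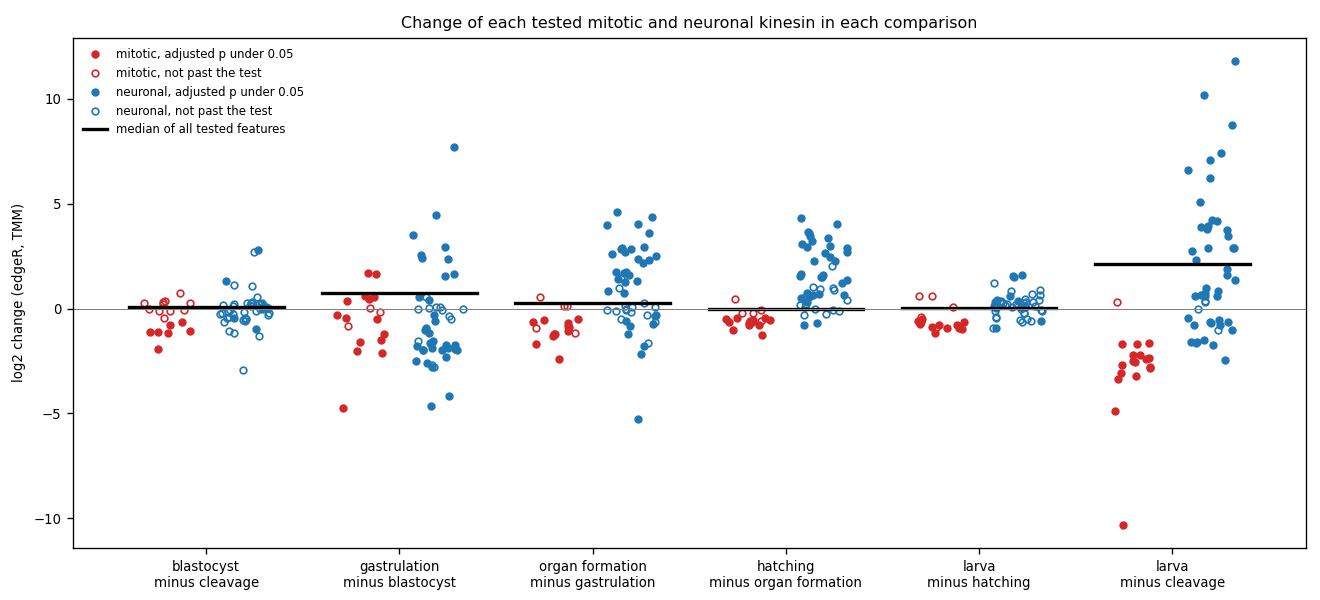
Log2 change of each tested mitotic (red) and neuronal (blue) kinesin in the 5 steps and from cleavage to larva, with TMM scaling. Filled points have an edgeR adjusted p under 0.05 and black lines mark the median of all tested features, 2.12 in the last comparison. Fitted changes of members with 0 counts at a stage depend on the prior count.

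On the TMM scale, the highest stage mean of 9 of the 18 tested mitotic kinesins was at cleavage, of 5 at blastocyst, of 3 at gastrulation and of 1 at organ formation, and 14 were lowest in the larva. Of the 48 tested neuronal kinesins, 25 were highest in the larva and 19 lowest at gastrulation. Among all 69265 tested features 13.2% were highest at cleavage and 26.1% in the larva, and 8899 were lowest in the larva and 10496 at gastrulation. Among the 41841 protein-coding ones 16.1% were highest at cleavage and 30.7% in the larva.

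KIF11, the motor that slides spindle microtubules apart, had 2 copies. LOC109106936 was at 834, 762 and 807 CPM in the 3 cleavage libraries, 478, 543 and 542 at blastocyst, 430.1, 474 and 489.7 at gastrulation, 277, 259.6 and 254 at organ formation, 190.4, 158 and 200.1 at hatching, and 95.1, 94.1 and 96.9 in the larva. All libraries of cleavage were above all others, and those of the larva below all others. From cleavage to larva it fell by 3.07 (SE 0.10) on the log2 scale (edgeR adjusted p = 1.5e-16). LOC109085360, described as KIF11-B, went from 444 ± 12.1 CPM at cleavage to 255 ± 25.4 at blastocyst, 381 ± 31.9 at gastrulation and 87.0 ± 6.03 in the larva. Its higher level at gastrulation than at blastocyst depends on the TMM scale. In deposited RPKM it was at 19.4 ± 1.77 at blastocyst and 14.6 ± 2.80 at gastrulation. It fell by 2.35 (SE 0.10) from cleavage to larva (edgeR adjusted p = 8.4e-15). The shares of the copies moved: LOC109106936 gave 64.3% of the KIF11 counts at cleavage, 67.1% at blastocyst and 52.3% in the larva.

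The 2 copies of KIF20A, which brings the Aurora B complex to the central spindle, went separate ways. The copy LOC109065699, named zgc:56231, had 613, 600.0 and 627 CPM at cleavage, 152, 152 and 181 at blastocyst, 4.97, 5.82 and 6.99 at gastrulation, 1.69, 0.891 and 0.787 at organ formation, 0.675, 0.382 and 0.342 at hatching, and 0.310, 0.596 and 0.528 in the larva. Its libraries did not overlap between any of the first 4 stages. It fell by 10.31 (SE 0.24) from cleavage to larva (edgeR adjusted p = 1.5e-18), the most negative change of the 112 tested kinesins. The copy kif20a had 409, 454 and 406 CPM at cleavage, 418, 399 and 414 at blastocyst, 609, 678 and 524 at gastrulation, 242, 282 and 267 at organ formation, 163, 130.4 and 172 at hatching, and 80.1, 82.9 and 112 in the larva. On the TMM scale its gastrulation libraries lay above all others, which the RPKM denominators turn round, and its cleavage and blastocyst libraries overlapped. It fell by 2.21 (SE 0.13) from cleavage to larva (edgeR adjusted p = 2e-12). Per length within a library, zgc:56231 was at 1.97 ± 0.159 times the RPKM of kif20a at cleavage, 0.532 ± 0.0505 times at blastocyst and 0.0136 ± 0.00389 times at gastrulation. The 8 oocyte and maternal markers also fell, though by a smaller factor than zgc:56231 in the step to blastocyst. Their sum went from 1896 ± 44.3 CPM at cleavage to 1301 ± 78.1 at blastocyst and 57.2 ± 17.1 at gastrulation. One of them, btg4, a maternal regulator of RNA decay, went from 655 ± 41.8 to 7.10 ± 6.67 CPM at gastrulation. The part of stored maternal RNA in the fall of zgc:56231 was not tested.

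KIF23, the motor of the centralspindlin complex that builds the midbody, had a high and a low copy. Its row kif23 was at 422 ± 26.1 CPM at cleavage, 489 ± 8.65 at blastocyst, 362 ± 33.6 at gastrulation, 111 ± 2.48 at organ formation, 76.0 ± 8.56 at hatching and 44.9 ± 4.07 in the larva. The fall into organ formation went from 324, 383 and 381 CPM to 113, 112 and 108 CPM, a log2 change of -1.71 (SE 0.10, edgeR adjusted p = 1.1e-11). The second copy, LOC109074176, was lower at every stage and fell further: 33.3 ± 4.51 CPM at cleavage, 41.7 ± 1.57 at blastocyst, 10.1 ± 1.16 at gastrulation and 1.12 ± 0.348 in the larva, a log2 change of -4.90 (SE 0.27, edgeR adjusted p = 5.7e-13) from cleavage.

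KIF18A, a kinesin-8 that damps the movement of chromosomes at the metaphase plate, had a pair of copies with like levels. LOC109093839 was at 155 ± 5.21 CPM at cleavage, 184 ± 16.1 at blastocyst, 146 ± 14.2 at gastrulation, 58.2 ± 5.87 at organ formation and 22.3 ± 0.664 in the larva. LOC109102308 was at 181 ± 10.2, 165 ± 4.90, 117 ± 15.7, 48.7 ± 2.53 and 17.4 ± 1.33 CPM at the same stages. Both fell into organ formation, by 1.33 (SE 0.12, edgeR adjusted p = 8.8e-09) and by 1.26 (SE 0.11, edgeR adjusted p = 3.9e-09), and both were lowest in the larva with no overlap with earlier stages.

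KIF2C, the kinesin-13 that removes tubulin from microtubule ends at centromeres, fell in the first step in its 2 higher rows. LOC109058483 was at 121, 128 and 120.3 CPM at cleavage and at 47.5, 60.3 and 58.6 at blastocyst. No library overlapped between the 2 stages, and it fell by 1.15 (SE 0.11, edgeR adjusted p = 1e-07). It was then at 70.5 ± 9.35 CPM at gastrulation, 50.01 ± 0.614 at organ formation, 31.9 ± 2.31 at hatching and 18.8 ± 0.806 in the larva. In deposited RPKM it was at 8.32 ± 0.962 at blastocyst and 5.39 ± 1.36 at gastrulation, so its higher gastrulation level depends on the TMM scale. The copy LOC109108338 also had its lower libraries at blastocyst, going from 24.6 ± 1.35 to 11.3 ± 2.18 CPM, and ended at 4.37 ± 1.05 CPM. Per length the copies were close, at 21.5 RPKM for LOC109058483 and 20.6 RPKM for LOC109108338 at cleavage. The third KIF2C row, LOC109110519, had stage means between 0.554 and 4.14 CPM. Its highest mean was at blastocyst, where its libraries overlapped with those of cleavage.

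KIF20B, a motor of the last steps of cytokinesis, had 8 rows that fell into opposite courses at gastrulation. LOC109059050 was at 131, 122 and 162 CPM at cleavage, 56.0, 67 and 71.9 at blastocyst, 178, 179 and 267 at gastrulation, 146, 129 and 116 at organ formation, 63.4, 74.3 and 57.9 at hatching, and 44.5, 39.6 and 44.9 in the larva. Its blastocyst libraries lay below those of both neighbouring stages, and it rose by 1.68 (SE 0.15) into gastrulation (edgeR adjusted p = 3.6e-09). LOC109061393 did so too at a lower level, from 11.5 ± 1.75 to 35.9 ± 9.26 CPM, with an edgeR adjusted p of 1.1e-08. The row kif20ba, LOC109070720, instead fell in that step from 126, 143 and 149.6 CPM to 44.3, 46.7 and 56.8 CPM (edgeR adjusted p = 1.3e-10), and so did LOC109062026, from 16.7 ± 1.28 to 7.25 ± 1.76 CPM. As shares of the KIF20B counts, kif20ba went from 57.7% at blastocyst to 16.4% at gastrulation and LOC109059050 from 26.8% to 68.2%. These shares are taken within libraries. The remaining 4 KIF20B rows had stage means of at most 5.74 CPM.

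**Figure D3:**
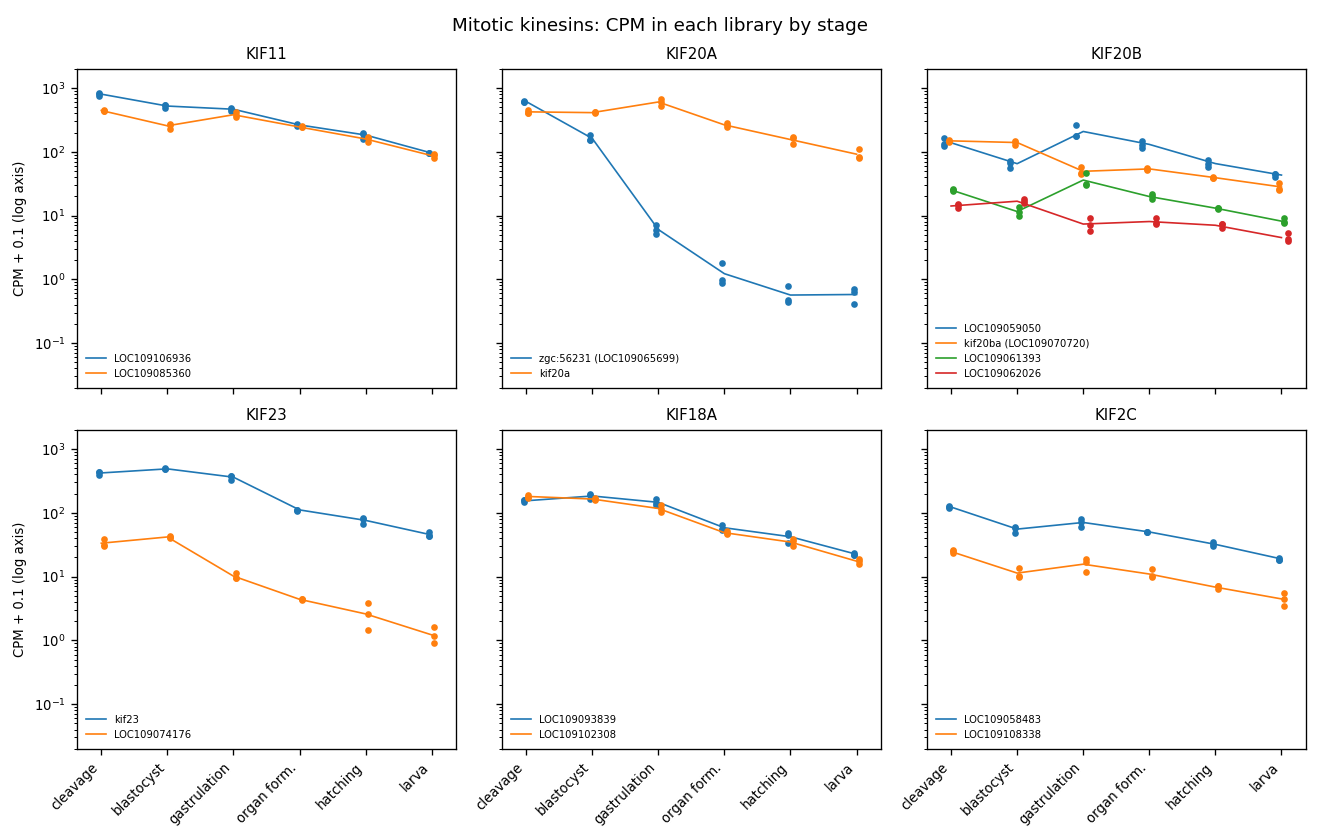
CPM + 0.1 (log axis) of the named mitotic kinesins at the 6 stages, with 1 panel per kinesin name, a point per library and lines through stage means. zgc:56231 drops from 613 CPM at cleavage to 0.478 CPM in the larva, while kif20a stays above 80 CPM in each library.

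The KIF5 family, the conventional kinesin heavy chains, included the kinesin with the highest mean level per length in the larva. LOC109054246, which the newer NCBI gene table names kif5aa, was at 0.522, 0.235 and 0.293 CPM at cleavage, 0.639, 0.296 and 0.338 at blastocyst, 3.00, 2.18 and 2.6 at gastrulation, 9.45, 12.6 and 15.7 at organ formation, 136, 117 and 136 at hatching, and 158, 168 and 154 in the larva. Cleavage and blastocyst overlapped, and every later stage lay above the one before it. The change from cleavage to larva was 8.74 (SE 0.26, edgeR adjusted p = 2.6e-17). KIF5A is a neuron-specific heavy chain in mammals. Among the 120 kinesins, kif5aa was at rank 102 per length at cleavage (0.0274 RPKM) and at rank 1 in the larva (9.45 ± 0.375 RPKM). That lead was within the spread of rank 2, the KIFC1 row LOC109082809 (9.21 ± 1.17 RPKM).

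The second row with such a name, kif5ab (LOC109092730), had 0 counts in the cleavage and blastocyst libraries. It was at 0.308, 0.0495 and 0.420 CPM at organ formation, 5.30, 5.60 and 4.63 at hatching, and 12.7, 15.6 and 18.6 in the larva. The larval level was at least 461-fold higher than at cleavage, taking 3 counts summed over the 3 cleavage libraries as the floor. LOC109058694, a kinesin heavy chain-like row, went from 0.511 ± 0.368 CPM at cleavage to 48.7 ± 1.81 at hatching and 34.3 ± 5.84 in the larva (log2 change from cleavage to larva 6.21, SE 0.44, edgeR adjusted p = 1.2e-10).

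The rows called kinesin-1 heavy chain, among them kif5bb, the fish counterpart of the widely expressed KIF5B, were present from the start. LOC109061561 (kif5bb) was at 86.8, 72.5 and 75.3 CPM at cleavage, 31.7, 39.2 and 41.0 at gastrulation, 24, 26 and 24.7 at organ formation, and 46.4, 50.9 and 47.1 in the larva, so the larva lay below cleavage and above organ formation without overlap. LOC109061694 was nearer to level, at 76.1 ± 2.57 CPM at cleavage, 48.8 ± 5.65 at organ formation and 54.8 ± 4.35 in the larva, and LOC109070273 went from 19 ± 2.27 to 7.84 ± 0.541 and 13.1 ± 0.756 CPM at these stages. One heavy chain row, LOC109102212, did not pass the test over the 6 stages (edgeR adjusted p = 0.21): its stage means lay between 18 ± 1.76 and 22.2 ± 0.630 CPM. That level course depends on the TMM scale. In deposited RPKM the row was at 5.48 ± 0.813 at cleavage, 2.75 ± 0.329 at gastrulation and 4.24 ± 0.219 at hatching. Within a library, the summed RPKM of kif5aa and kif5ab was 0.00120 ± 0.000424 times that of the 3 kinesin-1 heavy chain rows at cleavage, 0.0146 ± 0.00357 at gastrulation, 0.0973 ± 0.0299 at organ formation, 0.796 ± 0.0570 at hatching and 0.971 ± 0.0203 in the larva.

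Summed over its rows, KIF1A, the carrier of synaptic vesicle precursors, rose most between organ formation and hatching. The row LOC109064846 was at 60.7, 65.7 and 61.1 CPM at cleavage, 71.9, 66.0 and 67.8 at blastocyst, 7.49, 11.4 and 10.8 at gastrulation, 11.9, 10.2 and 9.34 at organ formation, 128, 123.4 and 125 at hatching, and 183, 194 and 185 in the larva. It was thus abundant before gastrulation, low at 2 stages, and highest at the end. It fell by 2.77 into gastrulation on the log2 scale (SE 0.13, edgeR adjusted p = 3.9e-14) and rose by 3.58 into hatching (SE 0.13, edgeR adjusted p = 6.6e-14). The row kif1aa, LOC109088375, lacked the early level: it was at 0.397 ± 0.333 CPM at cleavage, 1.28 ± 0.413 at gastrulation, 10.4 ± 0.458 at organ formation, 50.5 ± 4.47 at hatching and 60.2 ± 6.96 in the larva. LOC109106514 went from 0.227 ± 0.237 CPM at cleavage to 26.4 ± 1.93 in the larva and LOC109091789 from 1.72 ± 1.20 to 21.7 ± 1.73.

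LOC109064841 lies on the same scaffold as LOC109064846 and had 1 library apart at gastrulation. It was at 10.8 and 11.1 CPM in gastrulation libraries 1 and 2 and at 32.4 CPM in library 3, then at 4.03 ± 0.625 at organ formation, 51.3 ± 2.41 at hatching and 93.5 ± 6.17 in the larva. It gave 57.0 ± 13.1% of the KIF1A counts at gastrulation, and LOC109064846 gave 36.1%. At cleavage LOC109064846 gave 93.8% of them.

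KIF1B and KIF1C carry mitochondria and vesicles. All 3 tested KIF1B rows rose from cleavage to larva, as did 58.5% of all features. The row LOC109074537 was at 83.9, 93.2 and 76.5 CPM at cleavage, 26.8, 33.4 and 32.1 at gastrulation, 51.4, 48.4 and 53.7 at organ formation, 120.5, 117 and 118 at hatching, and 148, 168 and 141 in the larva. The larval libraries were above all others, with a change from cleavage of 0.85 (SE 0.10, edgeR adjusted p = 2.1e-07). Row kif1b, LOC109113849, dipped likewise, from 23 ± 0.967 CPM at cleavage to 4.76 ± 0.173 at gastrulation, and reached 34.3 ± 3.83 in the larva. LOC109080405 was at 2.41 ± 0.608 CPM at cleavage and 32.8 ± 4.88 in the larva.

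The 4 KIF1C rows were split. LOC109079812 fell from 53.2 ± 1.5 CPM at cleavage to 16 ± 1.40 in the larva (log2 change -1.73, SE 0.12, edgeR adjusted p = 1.2e-11), its neighbour on the same scaffold kif1c from 21.2 ± 1.29 to 7.41 ± 0.510, and LOC109088989 from 15.4 ± 1.68 to 10.03 ± 0.910. LOC109060965 instead went from 39.3 ± 3.66 to 66.4 ± 3.87 CPM, a log2 change of 0.76 (SE 0.11, edgeR adjusted p = 2.4e-06). It gave 30.4% of KIF1C counts at cleavage and 66.4% in the larva. KIF1A as a whole was at 0.170 ± 0.0150 times the summed RPKM of KIF1C at cleavage, 0.176 ± 0.0255 times at organ formation, 1.81 ± 0.162 times at hatching and 2.18 ± 0.0521 times in the larva.

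In the kinesin-2 family, KIF3A and KIF3B form the motor of cilium assembly and of much cell transport, and KIF3C is in mammals found mainly in the nervous system. Of the 3 KIF3B rows, 2 had their highest mean at cleavage, with libraries that overlapped with those of blastocyst. LOC109048364 was at 33.0, 32.4 and 33.3 CPM at cleavage, 33.5, 33.4 and 28.7 at blastocyst, 8.72, 8.19 and 8.61 at gastrulation, and 9.98, 10.5 and 11.8 in the larva. Its neighbour kif3b, LOC109048392, went from 37.2 ± 6.36 CPM at cleavage to 5.69 ± 1.07 at gastrulation and 6.89 ± 0.873 in the larva (larva minus cleavage on the log2 scale, -2.43, SE 0.17, edgeR adjusted p = 2.6e-11). Both remained low in the larva, with no overlap with cleavage. The third row, LOC109061369, was highest in the larva. It was at 0, 0.470 and 1.12 CPM at cleavage and at 7.93, 9.88 and 8.32 CPM in the larva. The KIF3A row LOC109070323 fell into gastrulation and came back in part. It was at 83.0, 62.6 and 66.9 CPM at cleavage, 13.1, 14.1 and 18.6 at gastrulation, 16.1, 12.7 and 13.8 at organ formation, and 40.3, 44.2 and 40.4 in the larva. The row kif3a was at 23.1 ± 3.08 CPM at cleavage. Its libraries overlapped between blastocyst (17.8, 16.7 and 16.7 CPM) and gastrulation (14.9, 16.6 and 17.2 CPM) on the TMM scale. In deposited RPKM it was at 1.98 ± 0.104 at blastocyst and 0.955 ± 0.183 at gastrulation. It was at 9.25 ± 0.700 CPM at organ formation and 36.3 ± 1.22 in the larva.

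KIF3C was low until organ formation. LOC109056047 was at 2.95, 1.81 and 1.32 CPM at cleavage, 3.39, 3.32 and 4.2 at organ formation, 25.3, 20.2 and 25 at hatching, and 28.7, 33.0 and 32.1 in the larva, a rise from cleavage of 3.91 (SE 0.29, edgeR adjusted p = 7.3e-11). LOC109056042 and kif3cb rose from 1.29 ± 0.488 and 1.82 ± 0.418 CPM to 23.3 ± 1.89 and 12.2 ± 1.94 CPM. The order of the subunits turned within libraries: KIF3C was at 0.0526 ± 0.00968 times the summed RPKM of KIF3B at cleavage, 0.0448 ± 0.00627 at blastocyst, 0.512 ± 0.111 at gastrulation, 0.424 ± 0.0594 at organ formation, 1.61 ± 0.217 at hatching and 2.17 ± 0.0143 in the larva. At gastrulation LOC109073935, a row with stage means of at most 4.18 CPM, gave 57.5% of the KIF3C counts.

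Several KIF21 rows, of motors that restrain microtubule growth, rose at organ formation. LOC109078928 (KIF21A) was at 8.20, 10.6 and 8.45 CPM at cleavage, 8.93, 11.5 and 9.52 at gastrulation, 62.9, 69.0 and 60.8 at organ formation, 72.2, 59.0 and 71.5 at hatching, and 41.1, 44.1 and 48.1 in the larva. Organ formation and hatching overlapped and lay above the other stages, and the step into organ formation was 2.68 (SE 0.14, edgeR adjusted p = 1.1e-12). LOC109050966 rose in that step from 3.44 ± 0.219 to 24.2 ± 5.72 CPM (edgeR adjusted p = 6.1e-09), LOC109066381 from 2.13 ± 0.177 to 15.7 ± 0.378, and kif21a from 11.2 ± 2.14 to 33.3 ± 1.35 CPM. The row kif21a went on to 53.6 ± 0.887 CPM in the larva, and LOC109057216 was at 12.0 ± 1.29, 2.56 ± 0.191 and 17.9 ± 1.70 CPM at cleavage, gastrulation and in the larva.

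The shares of the KIF21B copies moved. The row kif21b was at 17.5 ± 5.13 CPM at cleavage, 66.3 ± 3.39 at organ formation, 66.4 ± 4.08 at hatching and 34.5 ± 7.85 in the larva, and its last step was a fall by 0.94 (SE 0.17, edgeR adjusted p = 0.00071). LOC109068974 was at 26.3 ± 3.39 CPM at cleavage and 6.09 ± 2.01 at organ formation. The row kif21b gave 32.4% of the KIF21B counts at cleavage, 88.6% at organ formation and 65.2% in the larva.

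**Figure D4:**
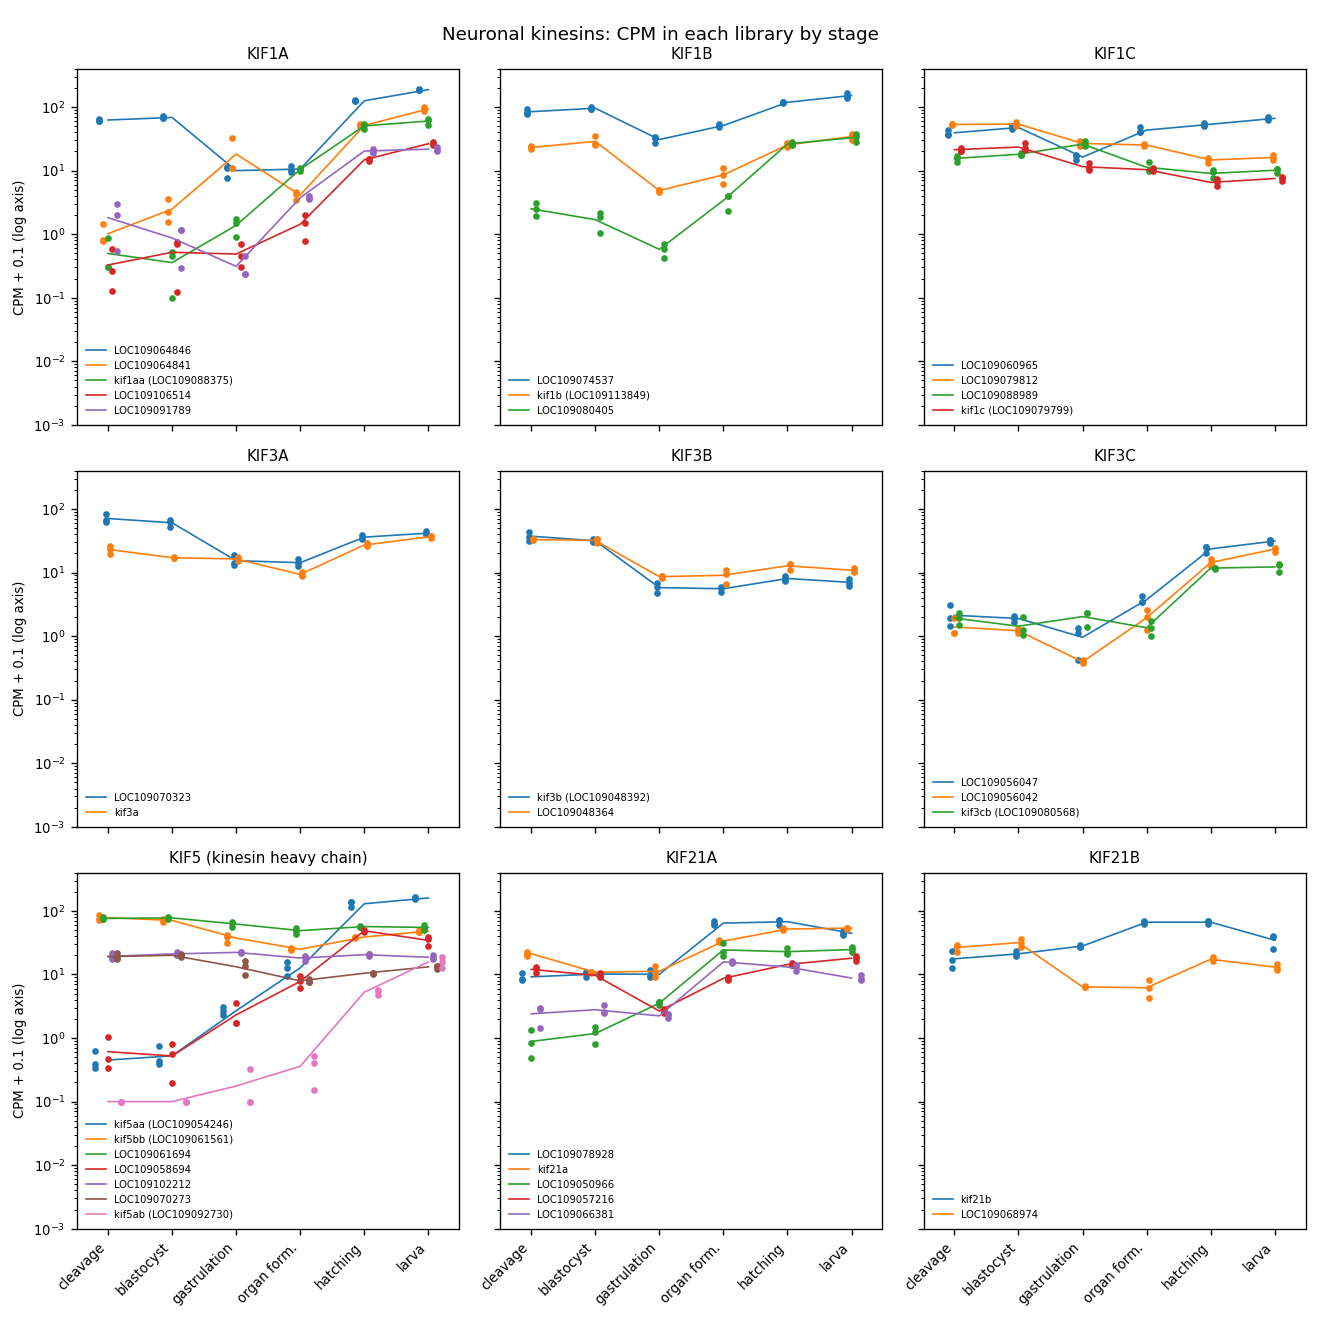
CPM + 0.1 (log axis) of the named neuronal kinesins at the 6 stages, with 1 panel per kinesin name, a point per library and lines through stage means. The kif5aa row rises from 0.350 CPM at cleavage to 159.9 CPM in the larva, and the KIF1A row LOC109064846 dips to 9.90 CPM at gastrulation between 62.5 CPM at cleavage and 188 CPM in the larva.

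Neuron markers moved with the late rise, but not with the early level. The 47 marker rows summed to 33.1 ± 2.86 CPM at cleavage, where 24 of them had 0 counts, 77.8 ± 4.82 at gastrulation, 169 ± 17.4 at organ formation, 954 ± 46.4 at hatching and 1234 ± 35.5 in the larva. ELAV-like protein 4 (LOC109068983), an RNA-binding protein of neurons, was at 0.162 ± 0.224 CPM at cleavage, 9.93 ± 1.58 at organ formation and 179 ± 26.5 in the larva. The neuronal kinesins summed to 783 ± 37.0 CPM at cleavage, 415 ± 34.4 at gastrulation, 588 ± 11.8 at organ formation, 1256 ± 34.6 at hatching and 1463 ± 75.1 in the larva. In deposited RPKM these kinesins summed to 108 ± 13.1 at cleavage, 24.7 ± 4.71 at gastrulation and 112 ± 4.91 in the larva. The larval sum above that of cleavage thus depends on the scale and on transcript length. Their summed RPKM over that of the neuron markers was 15.9 ± 2.49 at cleavage, 4.44 ± 0.319 at gastrulation and 0.577 ± 0.0475 in the larva. The part of neuron number in the late rise was not tested.

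Among the further mitotic kinesins, 1 of the 12 rose and 11 fell from cleavage to larva, against 58.5% and 22.5% of all features. On the TMM scale 6 had their highest stage mean at gastrulation, as did 21.4% of all tested features. KIF22, which pushes chromosome arms toward the spindle equator, led them: LOC109067303 was at 259, 263 and 244 CPM at cleavage, 414, 382 and 352 at blastocyst, 624, 658 and 503 at gastrulation, 119.7, 144 and 130.2 at organ formation, and 51.0, 43.7 and 51.5 in the larva. It fell by 2.18 into organ formation on the log2 scale (SE 0.14, edgeR adjusted p = 2.4e-11). It was the first kinesin per length at gastrulation, at 41.9 ± 7.90 RPKM. At blastocyst it was at 53.7 ± 4.45 RPKM, so its rise into gastrulation depends on the TMM scale. Its copy LOC109080945 was highest at blastocyst, at 224 ± 4.29 CPM, and at 21 ± 1.01 CPM in the larva.

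KIFC1, a minus-end motor that bundles spindle microtubules, was at 210.4 ± 11.3 CPM (LOC109082809) and 163 ± 4.12 CPM (LOC109062119) at cleavage, 374 ± 30.9 and 261 ± 19.3 at gastrulation, and 73.7 ± 8.03 and 37.9 ± 6.56 in the larva. The higher level at gastrulation than at cleavage depends on the TMM scale. In deposited RPKM these rows were at 34.5 ± 4.33 and 24.9 ± 2.32 at cleavage and 26.6 ± 5.31 and 17.3 ± 3.11 at gastrulation. KIF14, which acts in cytokinesis, went from 148 ± 4.10 CPM at cleavage to 22.9 ± 1.32 in the larva, and KIF15, which can stand in for KIF11 in building the spindle, from 157 ± 13 to 41.0 ± 0.770 CPM. KIF2A is a depolymerase of spindle poles that also trims axon branches in mice. Its 5 rows summed to 146 ± 1.04 CPM at cleavage and 122 ± 2.30 in the larva, and they went opposite ways between. LOC109059016 was at 16.4 ± 1.78 CPM at cleavage, 75.9 ± 3.19 at gastrulation and 28.5 ± 2.10 in the larva, and LOC109096786 at 37.5 ± 1.73, 6.18 ± 1.23 and 26 ± 2.02 CPM.

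Of the 31 tested ciliary or trafficking kinesins, 17 rose and 8 fell from cleavage to larva, shares near the 58.5% and 22.5% of all features. Both named KIF26A rows rose at gastrulation, a step in which 44.4% of all features rose. KIF26A and KIF26B are atypical kinesins that bind microtubules without walking. The row kif26ab, LOC109107057, was at 2.09, 2.01 and 2.00 CPM at cleavage, 3.48, 5.73 and 1.84 at blastocyst, 406, 477 and 438 at gastrulation, 88.6, 96.1 and 84.6 at organ formation, and 57.0, 59.4 and 48.9 in the larva. The gastrulation libraries lay far above all others, and the step was 6.90 (SE 0.26, edgeR adjusted p = 1.6e-14). LOC109074543 did the same, from 1.66, 1.88 and 1.28 CPM to 256, 306 and 259 CPM (edgeR adjusted p = 1.3e-17), and was at 48.3 ± 3.72 CPM in the larva.

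KIF26B rose later. LOC109107466 had 0 counts at cleavage, and was at 0.818, 1.3 and 1.62 CPM at gastrulation, 6.73, 8.07 and 8.14 at organ formation, 26.1, 25.3 and 24.9 at hatching, and 45.8, 48.4 and 36.6 in the larva. Each stage from gastrulation lay above the one before it, and the larval level was at least 1290-fold higher than the floor of 3 counts over the cleavage libraries. LOC109061091 was at 4.54 ± 0.375 CPM at cleavage, 0.576 ± 0.216 at organ formation and 12.6 ± 1.32 in the larva. Another row with 0 counts at cleavage, kif16bb, of an endosome motor, reached 7.47 ± 2.86 CPM in the larva.

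Falls outside the mitotic groups included those of KIF13B, a carrier of membrane cargo, and KIFC3. The row kif13bb, LOC109105291, was at 206, 209 and 190.3 CPM at cleavage, 175, 176 and 168 at blastocyst, then 16, 18.2 and 19.4 at gastrulation, a fall by 3.27 (SE 0.17, edgeR adjusted p = 2.2e-13) with no overlap, and it was at 10.4 ± 2.14 CPM in the larva. KIFC3, a minus-end motor at cell junctions, went from 94.5, 100.1 and 99.3 CPM at blastocyst to 58.6, 76.2 and 70.6 at gastrulation, with no overlap. Its larger fall came one step later, from 68.5 ± 8.98 CPM at gastrulation to 13 ± 1.60 at organ formation (fell by 2.39, SE 0.14, edgeR adjusted p = 7.2e-12). KIF7, a regulator of Hedgehog signalling at the cilium tip, was at 78.9 ± 5.82 CPM at cleavage, 134 ± 17.4 at gastrulation and 40.2 ± 3.18 in the larva in its row LOC109068621. In deposited RPKM that row was at 6.14 ± 0.902 at cleavage and 4.51 ± 0.930 at gastrulation, so its gastrulation peak depends on the TMM scale. KIF19, which sets cilium length in mice, fell into gastrulation. LOC109107481 was at 28.6, 24.8 and 20.98 CPM at blastocyst and 4.02, 5.76 and 3.37 at gastrulation (edgeR adjusted p = 4.7e-09), and at 8.93 ± 2.53 CPM in the larva. LOC109057100 had 6.50 ± 1.53 CPM at blastocyst and 0.616 ± 0.229 at gastrulation.

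**Figure D5:**
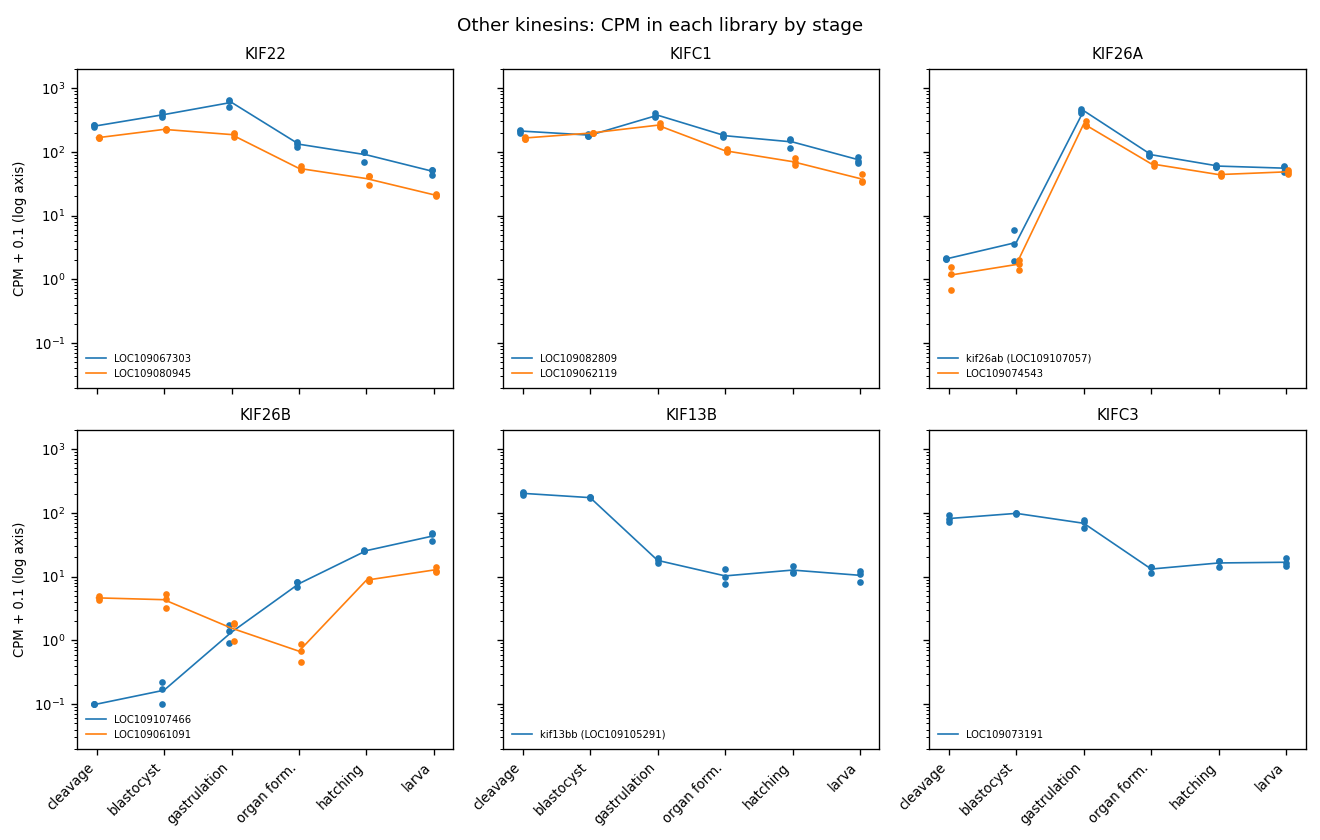
CPM + 0.1 (log axis) of the other named kinesins at the 6 stages, with 1 panel per kinesin name, a point per library and lines through stage means. The kif26ab row rises from 3.68 CPM at blastocyst to 440.2 CPM at gastrulation, and kif13bb falls from 173 to 17.9 CPM in the same step.

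Per length, the leading kinesins at cleavage were zgc:56231 (92.1 ± 5.62 RPKM), the KIF11 row LOC109106936 (76.7 ± 6.71 RPKM), kif20a and kif23. In the larva they were kif5aa, the KIFC1 row LOC109082809 at 9.21 ± 1.17 RPKM, kif20a at 7.78 ± 1.63 RPKM, LOC109106936 at 6.96 ± 0.220 RPKM, and the KIF1B and KIF1A rows LOC109074537 at 6.56 ± 0.552 RPKM and LOC109064846 at 6.37 ± 0.199 RPKM. The 2 mitotic rows kif20a and LOC109106936 were thus among the first 4 at both ends of the series.

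Genes that work with the mitotic kinesins also fell. Of 67 rows of spindle and cytokinesis genes, such as Aurora kinases, cyclins, PLK1 and checkpoint genes, 61 were tested, and 1 rose and 59 fell from cleavage to larva, against 58.5% and 22.5% of all features. Cyclin B1 (LOC109080386), the activator of the mitotic kinase, was at 626 ± 33.6 CPM at cleavage, 907 ± 74.3 at blastocyst and 39.6 ± 7.58 in the larva. Within a library the mitotic kinesins had 0.209 ± 0.00120 times the summed RPKM of these partners at cleavage, 0.147 ± 0.00675 at blastocyst, 0.233 ± 0.00884 at organ formation and 0.229 ± 0.00258 in the larva, a narrow range beside the change of the kinesins themselves from 3559 ± 38.0 to 470 ± 37.0 CPM in sum. Against the 17 proliferation markers, which stood at 3745 ± 231 CPM at gastrulation, the same ratio fell from 1.64 ± 0.0313 at cleavage to 0.560 ± 0.0383 at gastrulation, 0.320 ± 0.0112 at organ formation and 0.336 ± 0.00846 in the larva. The part of cell division rate in these levels was not tested.

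Of 72 rows of transport partners, such as kinesin light chains, adaptors and the dynein motor, 65 were tested, and 42 rose and 12 fell from cleavage to larva, shares near the 58.5% and 22.5% of all features. They include heavy chains of cytoplasmic dynein, the motor that walks the other way: LOC109107412 went from 101 ± 24 CPM at cleavage to 408 ± 12.0 at organ formation, 691 ± 76.8 at hatching and 555 ± 51.0 in the larva, and dync1h1 from 70.9 ± 13.8 to 421 ± 13.8 CPM at the ends. In the step to hatching 42 transport partners rose and 0 fell in edgeR's test, where 1 fell at an unadjusted p under 0.05 and 0 with DESeq2 or limma, beside 30 risen and 2 fallen neuronal kinesins. Of all features 17.4% rose and 12.2% fell in that step.

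Of the members, 23 rows form 11 sets of rows with the same name on 1 chromosome or scaffold, and 69 of the 120 rows were found in the newer NCBI gene table. The sources used here do not say how reads that match several copies were counted, so the split of counts between near-identical copies is uncertain.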

How the data were processed

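Whole carp embryos were profiled by RNA-seq in 18 libraries, 3 for each of 6 stages. Raw read counts per feature were deposited by the authors, whole numbers not normalized between libraries, and the RPKM values were computed by the authors per feature length and library size, per the file headers. HISAT2, StringTie 1.3.3b, featureCounts and edgeR are listed in the submitters' processing notes, without settings. The genome build, the annotation, the strand setting and the treatment of reads with several matches were not given in the sources used here, and no sequence or coordinate is printed.

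Counts were tested with edgeR 4.0.16 in R 4.3.3 (filterByExpr, TMM factors, robust quasi-likelihood fit, 1 fit over all 18 libraries) for the 5 adjacent steps, larva against cleavage and the 6 stages together, with Benjamini-Hochberg adjustment over 69265 features. Fold changes are log2. Adjacent steps share libraries, so their calls are not independent of each other. Library totals ranged from 16326813 to 43270557 counts. Libraries of 1 stage differed by 3.84 to 31.5 in chi-square per degree of freedom, so none was a second copy of another. Equal replicate numbers were checked for pairing: same-numbered libraries correlated in their deviations from the stage means by -0.24 to 0.12 over 45 pairs, 2 of them over 0.1, so the numbers do not pair the libraries.

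The members and lists were chosen with earlier results of these data known. The text names mitotic and neuronal kinesins reaching a stage mean of 10 CPM, the 10 highest others, the 2 most changed in each direction at 5 CPM or more without overlapping libraries, 4 partners and 3 markers. Other rows named for a count, a copy or a split were chosen after their values were seen. Newer symbols come from the NCBI table of assembly ASM1834038v1, used for names alone.

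Alternatives were DESeq2 1.42.0 size factors and test, library totals, the RPKM denominators, 2 other filters, limma 3.58.1 on log2(RPKM + 1) and log2(RPKM + 0.1), a replicate block and leaving out each library. Leaving out trak1, adding the 6 KIF4 rows and keeping only rows of the newer table were chosen after seeing the data. Tested on simulated counts of 67598 features for larva against hatching, the fit recovered 21.2% of 2-fold and 53% of 4-fold changes with 2 false calls. The changed features were drawn from levels that reached far below those of the named kinesins, and all other features were kept equal. These rates therefore do not describe the tests of the named kinesins.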

Additional observations from a re-analysis of the deposited data

How the results depend on the processing

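The 125 gene comparisons taken here are among the changes that the text describes. They do not include the 21 small changes into gastrulation that turn with the RPKM denominators, some of which the text also describes. Of the 3371 values of the 125 comparisons under the alternatives, 3364 kept their direction and side of the threshold, 3 no longer passed, 4 newly passed and 0 changed sign. The count of 0 does not cover the changes that were left out. The 3 were the step of kif5aa (LOC109054246) into gastrulation with limma on log2(RPKM + 1), at 0.08, and the step of kif16bb (LOC109064990) into hatching without organ formation library 2 or 3, at 2.04 and 2.25. The cause was not tested.

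Counts of kinesins that moved by over 1.5 times follow, with the main count in brackets, and the cause was not tested. Counts of all features are given beside them for the RPKM denominators alone. A shift of all features under the other alternatives is therefore not shown. With the RPKM denominators, 2 (10) of all kinesins rose into blastocyst, 22 (37) rose into gastrulation, 26 (40) fell into organ formation, 1 (26) fell into hatching and 14 (22) fell into the larva. Of the mitotic kinesins, 2 (6) rose and 15 (9) fell into gastrulation, 1 (0) rose and 8 (13) fell into organ formation and 1 (13) fell into hatching. Of the neuronal kinesins, 0 (2) rose and 5 (2) fell into blastocyst, 5 (8) fell into organ formation, 0 (2) fell into hatching, and 3 (5) rose and 1 (2) fell into the larva. Of all 68347 features tested with these denominators, 7606 rose and 6391 fell into blastocyst, and 20766 rose and 24429 fell into gastrulation. Into organ formation 23366 rose and 9155 fell, into hatching 18708 rose and 2866 fell, and into the larva 3473 rose and 1890 fell. With library totals, 24 of all kinesins rose into gastrulation and 13 (8) into the larva, 2 mitotic kinesins rose into gastrulation and 2 into organ formation, and of the neuronal kinesins 1 rose into blastocyst, 5 fell into organ formation and 9 rose into the larva. With DESeq2 size factors 8 neuronal kinesins rose into the larva. Without a filter, 24 of all, 2 mitotic and 7 neuronal kinesins rose into blastocyst and 1 neuronal kinesin fell. With at least 1 CPM in 3 libraries these were 30, 3, 11 and 1, and 13 of all and 9 neuronal kinesins rose into the larva. With DESeq2's test these last 2 were 19 and 12.

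With limma on log2(RPKM + 1), of all kinesins 1 rose into blastocyst, 7 rose into gastrulation, 21 fell into organ formation, 1 fell into hatching, 18 rose into the larva and 30 (50) rose from cleavage to larva. Of the mitotic, 2 rose into gastrulation, 1 rose and 8 fell into organ formation and 1 fell into hatching. Of the neuronal, 0 rose and 5 fell into blastocyst, 1 (11) rose into gastrulation, 2 fell into organ formation, 0 fell into hatching, and 14 rose and 6 fell into the larva. On log2(RPKM + 0.1) the counts of all kinesins were 0, 11, 23, 1 and 30 in the first 4 and the last of these, those of the mitotic 2 risen into gastrulation, 1 risen into organ formation and 1 fallen into hatching, and those of the neuronal 0 risen into blastocyst, 3 risen into gastrulation, 3 fallen into organ formation, 0 fallen into hatching and 1 fallen into the larva.

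With the replicate number as a replicate block, 6 of all kinesins and 0 neuronal kinesins rose into blastocyst, and no other count moved by over 1.5 times. The numbers do not pair the libraries. Leaving out 1 library gave 8 to 28 of all kinesins risen into blastocyst, with 26 to 28 without cleavage 2, blastocyst 3 or any gastrulation library and 17 without cleavage 3, and 1 to 10 risen into the larva, with 1 or 2 without any hatching library or larva 2. It gave 0 to 3 mitotic kinesins risen into blastocyst, with 2 or 3 without cleavage 2 or 3, blastocyst 3 or any gastrulation library, and 3 to 6 risen into gastrulation. It gave 1 to 10 neuronal kinesins risen and 1 to 3 fallen into blastocyst, with 1 fallen without cleavage 3, blastocyst 3 or any gastrulation library, and 1 to 7 risen into the larva. The larva against cleavage counts stayed at 17 fallen mitotic kinesins and at 30 to 32 risen and 12 to 14 fallen neuronal kinesins. Keeping only rows of the newer table raised the share of neuronal kinesins that fell into blastocyst and into the larva from 4.17% to 7.41%, and leaving out trak1 or adding KIF4 moved no count by over 1.5 times. Rows with few counts could change without passing the test at this depth.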
